A study of Mus musculus with 38 samples.

Results

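The genes described here are 8 mouse genes of the eosinophil lineage and of the signals that supply it: Prg2, Epx, Siglecf, Ccr3, Il5ra, Il5, Ccl11 and Ccl24. They were listed by symbol and matched to the Ensembl identifiers of the count tables, and all 8 were found among 55416 genes. Prg2 was chosen by its measured level, which was lower with black rice than with control diet in the Apc table, and the other 7 by what they encode, so every value of that comparison is given as a description, without a test. The libraries were made from intestinal tract of mice in a study of black rice feeding and colorectal cancer, and were counted in 3 tables. The column names of the Apc table say colon. The Apc table held black rice, control diet and WT arms, each made of 3 F and 3 M libraries by the letters in their titles. The AOM table had a black rice and a control arm with the same letters and numbers, and the third table had 4 libraries labelled black rice and 4 labelled control, whose titles lack such a letter. The third table also bears the mark FMT, which no label explains, so whether its libraries received a further treatment is not known here. Where diets are named for the third table below, the words stand for these labels only. The letters are called the sex code here; the labels gave no strain, allele, age or dose, no treatment for WT libraries and no statement that replicates were separate animals, so p-values measure the spread between these libraries.

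Eosinophils are granulocytes that mature in bone marrow under interleukin 5 and enter tissues along gradients of eotaxins, chemokines that act on the receptor CCR3. The gut is one of their main homes at rest, where they sit in the lamina propria. Their granules carry major basic protein, encoded by Prg2, and eosinophil peroxidase, encoded by Epx. Siglecf encodes a sialic acid-binding surface receptor used to identify mouse eosinophils, and it is also found on intestinal tuft cells. Il5ra encodes the ligand-binding chain of the interleukin 5 receptor, Il5 the cytokine itself, and Ccl11 and Ccl24 encode eotaxin-1 and eotaxin-2.

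Upstream sequence from RefSeq (build GRCm38.p6, 250 bases before to 50 after the annotated start) was at hand for 5 of the 8 genes. The 3 shown belong to a granule enzyme and to the 2 surface receptors tested in all 3 tables, and capitals mark GATA, the core letters read by the GATA family to which the eosinophil lineage factor GATA-1 belongs.
Epx, chr11:87875487-87875786, minus strand: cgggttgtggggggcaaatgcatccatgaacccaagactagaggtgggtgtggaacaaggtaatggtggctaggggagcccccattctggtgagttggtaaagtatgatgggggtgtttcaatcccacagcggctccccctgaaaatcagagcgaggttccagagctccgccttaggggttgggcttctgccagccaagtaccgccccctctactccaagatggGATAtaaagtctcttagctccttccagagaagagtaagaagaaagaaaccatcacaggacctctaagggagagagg
Siglecf, chr7:43351091-43351390, plus strand: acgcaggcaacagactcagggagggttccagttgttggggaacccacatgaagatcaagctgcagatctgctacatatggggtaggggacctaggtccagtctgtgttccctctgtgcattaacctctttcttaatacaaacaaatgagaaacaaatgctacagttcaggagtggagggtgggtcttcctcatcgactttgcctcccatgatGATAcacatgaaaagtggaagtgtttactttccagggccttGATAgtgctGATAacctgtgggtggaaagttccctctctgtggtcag
Il5ra, chr6:106748988-106749287, minus strand: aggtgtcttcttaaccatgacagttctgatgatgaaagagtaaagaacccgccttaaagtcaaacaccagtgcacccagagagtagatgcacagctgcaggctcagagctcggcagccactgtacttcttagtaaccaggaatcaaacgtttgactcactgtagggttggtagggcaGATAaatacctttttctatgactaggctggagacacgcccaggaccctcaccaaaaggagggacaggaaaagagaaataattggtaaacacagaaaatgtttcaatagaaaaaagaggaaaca
GATA stood once in the Epx and Il5ra windows and 3 times in the Siglecf window, counting both strands (GATA or its reverse complement TATC). The letters are common: 57.9% of 32851 promoter windows of 300 bases held them, so a match describes the sequence and nothing more. Gata1 itself had at most 7 reads in any of 37 intestinal libraries and none in 16 of them.

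Library totals were 44.8 to 61.9 M reads in the Apc table, 5.37 to 55.1 M in the AOM table and 66.6 to 91.1 M in the third table. Levels are given as CPM, reads scaled to 1 M reads of the library total, with the SD over libraries, and differences as log2 fold changes from edgeR with their standard error (SE). One AOM library, black rice F replicate 3, stood apart before any result. It had 25.2% of its reads on 10 hepatocyte genes, against at most 0.0242% in any other AOM library and 0.0197% in any Apc library. It held 5.37 M reads. It was left out of the AOM comparisons, which leaves 11 AOM libraries and 37 in all. In bulk tissue, fewer cells of a type and less RNA per cell cannot be told apart.

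The label of these genes as an eosinophil signature was checked against 10 further eosinophil genes in those 37 libraries. The granule protein gene Prg3 reached at most 9 reads and was at 0 in 18 libraries, Ear1 had no read in any library, and Ear6, another eosinophil-associated ribonuclease, reached at most 3 reads. The lineage factor Cebpe reached at most 21 reads, and the histamine receptor Hrh4 was at 0 in 30 libraries. The remaining genes were not all low: Ear2, a ribonuclease of the same family, had reads in every library and up to 400, the lipoxygenase gene Alox15 reached 1769 reads and Clec4a4 reached 39, and these 3 passed the low-count filter. Of the granule genes, Prg3, Ear1, Ear6 and Epx were at or near 0, while Prg2 had 13 to 86 reads in the Apc table. The 8 genes are called by their symbols below, without being read as a measure of eosinophil number.

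Levels per kilobase of exon differed widely among the 8 genes. Ccl11 was the highest in each table, with a median of 22.8 RPKM in the Apc, 6.76 in the AOM and 11 in the third table. Prg2 and Siglecf followed in the Apc table at medians of 1.06 and 0.935 RPKM, in the AOM table at 0.702 and 0.609, and in the third table Siglecf stood above Prg2 at 1.40 and 0.201 RPKM. Ccl24 and Il5ra came next, at 0.292 and 0.160 RPKM in the Apc table. Epx, Ccr3 and Il5 had medians below 0.05 RPKM in all 3 tables. The ranges over libraries overlapped between Prg2 and Siglecf in the Apc table, 0.300 to 1.80 against 0.317 to 2.25 RPKM, so that pair of neighbours had no separate order there, and those of Ccl24 and Il5ra overlapped likewise. Ccl11 stood clear of the others, since its lowest library was at 5.69, 3.19 and 5.2 RPKM in the Apc table, the AOM table and the third table, above the highest Siglecf library at 2.25, 1.82 and 2.18 RPKM. Epx and Il5 did not pass the low-count filter in any table and Ccr3 passed in the Apc table alone, which left 6 genes tested there and 5 in each other table.

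**Figure D1:**
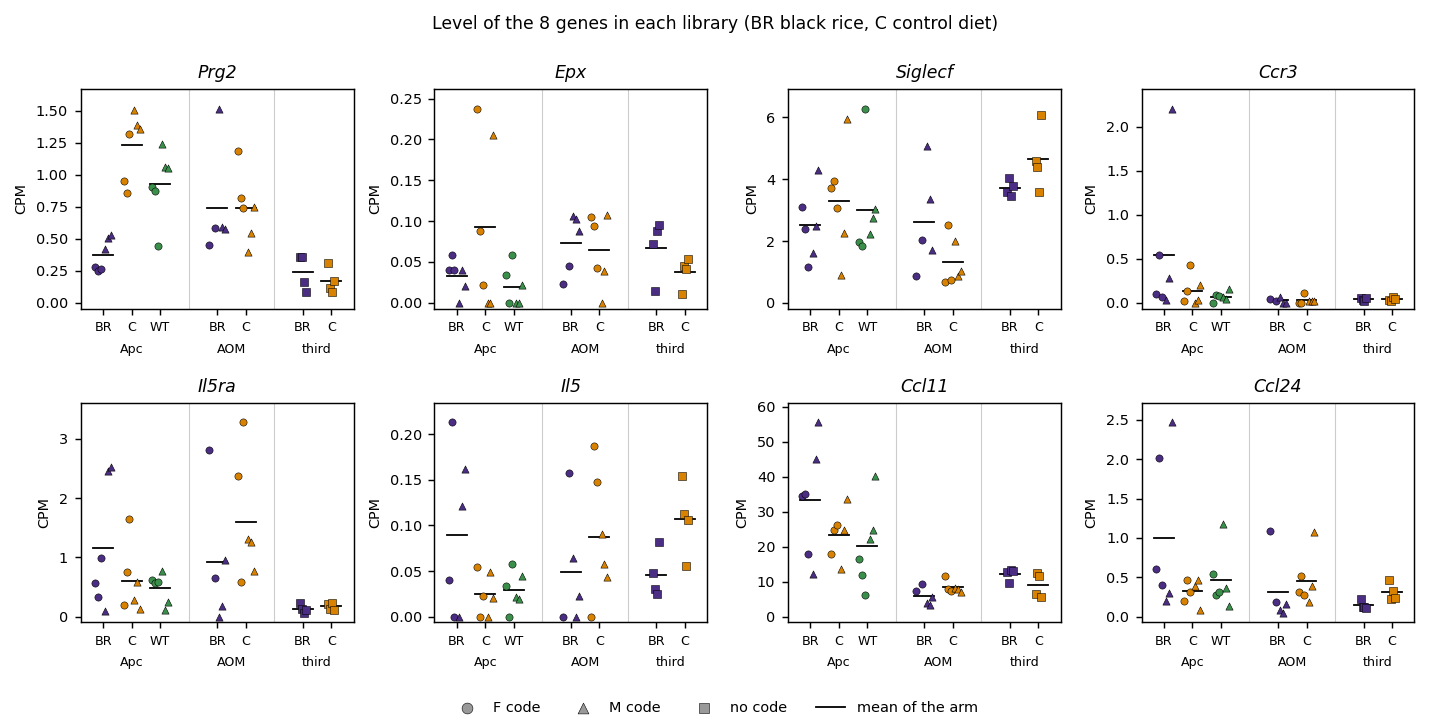
Level of the 8 genes in CPM (y axis, linear, a different scale in each panel) in the 37 libraries, by table and arm; circles are F, triangles M and squares libraries with no code, and bars are arm means. Prg2 in the Apc table is the panel in which black rice libraries, at 0.252 to 0.526 CPM, lie below all control libraries, at 0.858 to 1.5 CPM.

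Prg2, which encodes the major basic protein of the granule, was low in every Apc black rice library. Its level was 0.282, 0.252 and 0.264 CPM in the F and 0.420, 0.505 and 0.526 CPM in the M black rice libraries. In the control libraries it was 0.951, 0.858 and 1.32 CPM in F and 1.5, 1.39 and 1.36 CPM in M. WT libraries had 0.903, 0.874 and 0.446 CPM in F and 1.24, 1.06 and 1.05 CPM in M. Black rice libraries did not overlap with controls, and they overlapped with WT only through WT F replicate 3. In reads, the black rice libraries held 13 to 26, against 39 to 86 in control and 23 to 58 in WT libraries.

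The arm means were 0.375 ± 0.125 CPM in black rice and 1.23 ± 0.261 CPM in control libraries (SD, n = 6 each), beside 0.929 ± 0.271 CPM in WT libraries (SD, n = 6), a log2 fold change of black rice over control of -1.74 (SE 0.21). This is the contrast that chose the gene, so nothing is read from its test. Over all 21624 genes tested there, 3 were called at an adjusted p of 0.05 (0.0139%) and 144 (0.666%) had every black rice library below every control library. The smooth muscle list had 10 of 10 genes higher with black rice (median 0.45, none called), and with its mean as a covariate the Prg2 value was -1.86 (SE 0.27). Black rice stood below WT by a log2 fold change of -1.37 (SE 0.21, edgeR quasi-likelihood test, adjusted p = 0.049). Each of the 6 black rice libraries was below the WT mean of its sex code. This comparison also called 0.0139% of genes. It shares its black rice libraries with the one that chose Prg2, so nothing is read from its call. That call was lost under most other settings, among them limma-voom (adjusted p = 0.62), the smooth muscle covariate (adjusted p = 0.11), a B and plasma cell covariate chosen after the data were seen (-1.18, adjusted p = 0.21) and 11 of 12 fits that each left out 1 library. Control against WT gave 0.37 (SE 0.20, edgeR, adjusted p = 1.0). No gene was called there (0%), and 918 of 21624 had an unadjusted p under 0.05. That comparison shares its control libraries with the one that chose Prg2, so nothing is read from it either.

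Within each Apc arm, every F library had less Prg2 than every M library. The group means were 0.266 ± 0.015 and 0.484 ± 0.057 CPM in F and M black rice libraries, 1.04 ± 0.243 and 1.42 ± 0.077 CPM in F and M controls, and 0.741 ± 0.256 and 1.12 ± 0.108 CPM in F and M WT libraries (SD, n = 3 each). Over the 3 arms the F minus M log2 difference was -0.75 (SE 0.17), with an adjusted p of 0.10 by edgeR and 0.0082 by DESeq2. The edgeR test called 16 genes in this contrast (0.074%), none of them among the 8. How many genes DESeq2 called there is not given here, so nothing is read from its value. A complete order of F below M in all 3 arms occurred for 13 of 21624 genes (0.0601%). The AOM table had no such order: Prg2 was at 0.451 and 0.586 CPM in F and 1.52, 0.589 and 0.574 CPM in M black rice libraries.

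No Prg2 difference between diets passed the test in either of the other tables. AOM controls had 1.19, 0.819 and 0.741 CPM in F and 0.399, 0.541 and 0.751 CPM in M. The AOM means were 0.743 ± 0.436 CPM with black rice (SD, n = 5) and 0.740 ± 0.269 CPM with control diet (SD, n = 6), a log2 fold change of -0.00 (SE 0.33, edgeR, adjusted p = 1.0). No gene was called there (0%; 671 of 21895 had an unadjusted p under 0.05). The F diet difference minus the M one was -1.63 (SE 0.72, edgeR, adjusted p = 0.35), and it was -0.96 without black rice M replicate 1, the library at 1.52 CPM. Prg2 in the third table was at 0.358, 0.360, 0.164 and 0.0816 CPM with black rice and 0.308, 0.113, 0.0835 and 0.172 CPM with control diet. The arms overlapped, with a log2 fold change of 0.44 (SE 0.55, edgeR, adjusted p = 0.87); 0% of genes were called, and 1653 of 20831 had an unadjusted p under 0.05.

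**Figure D2:**
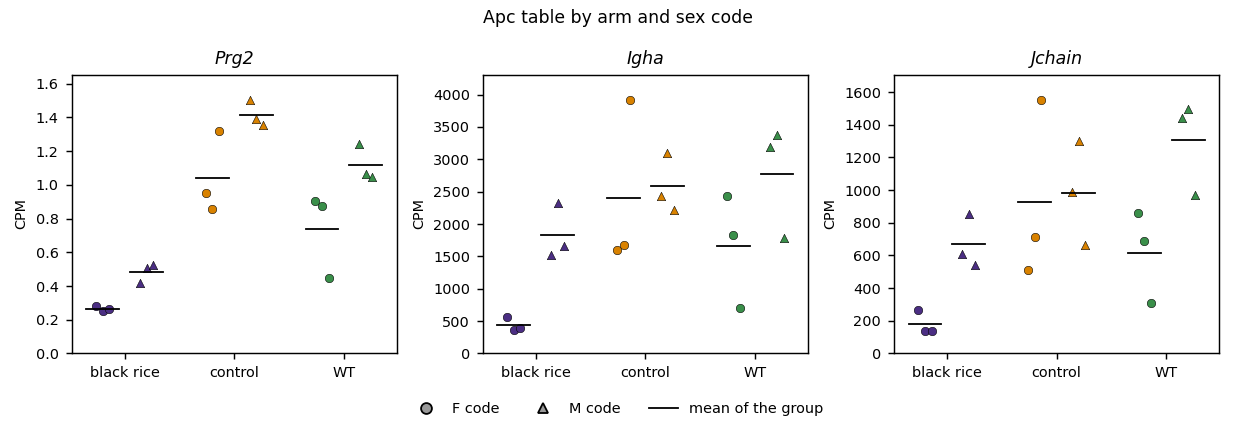
Prg2, Igha and Jchain in CPM (y axis, linear from 0) in the 18 Apc libraries by arm and sex code; points are libraries and bars are group means of 3. In each arm the 3 F libraries lie below the 3 M libraries for Prg2, while Igha and Jchain overlap between codes in control libraries.

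Genes of antibody-secreting cells varied with Prg2 between libraries. Candidates were 15754 genes with a symbol that were tested in all 3 tables. Predicted genes and antigen receptor segments, with antibody variable segments among them, were left out beforehand. The 5 candidates whose log2 CPM, centred on group means, correlated most with Prg2 over 37 libraries were Tnfrsf17, the plasma cell receptor BCMA (r = 0.72), Hpse, heparanase (0.71), Igha, the IgA heavy chain (0.70), Jchain, the joining chain of secreted IgA (0.68), and Igkc, the kappa light chain (0.65). They were picked for their correlation, so it is a description, and both genes of a pair share the depth and tissue of each library. Tnfrsf17 gave r = 0.82 within the Apc, 0.49 within the AOM and 0.93 within the third table, whereas Hpse gave 0.11, 0.91 and 0.84.

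All 9 genes of the B and plasma cell list were lower in Apc black rice than control libraries, with a median log2 difference of -1.44 against -0.01 over all tested genes, and none was called. Their summed level was 1001 to 7861 CPM in black rice, 5405 to 14277 CPM in control and 2898 to 12353 CPM in WT libraries. In the AOM table too all 9 were lower with black rice, at a median of -1.07, beside a Prg2 value of -0.00; in the third table all 9 were higher, at a median of 0.55, beside the Prg2 value of 0.44. None was called in either table. Other leukocyte lists were also lower in Apc black rice than control libraries, with none called: 10 of 10 T cell and innate lymphoid genes (median -0.87), 7 of 9 tested mast cell and basophil genes (median -0.89) and 5 of 6 neutrophil genes (median -0.55). The summed level of the mast cell and basophil list ran the other way, with a median of 86.5 CPM (53.6 to 102) in black rice and 67.7 CPM (55.3 to 131) in control libraries. With the mean log2 CPM of the B and plasma cell list as a covariate, an alternative chosen after the data were seen, the Apc black rice minus control value of Prg2 was -1.52 (SE 0.27), the AOM value 0.20 (SE 0.45) and the third table's -0.08 (SE 0.42).

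In the Apc black rice arm Igha was at 559, 362 and 390 CPM in F and 1514, 2332 and 1654 CPM in M black rice libraries. In control libraries Igha overlapped between the codes. Over the black rice, control and WT arms together, the median F minus M difference of the list was -0.84, with 5 of 9 genes lower and none called. Over the same arms Igha differed by -1.12 and Jchain by -1.16 (edgeR, adjusted p = 0.11 for both). The Prg2 difference over these arms was -0.69 (SE 0.17) with the list as covariate.

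Epx, the eosinophil peroxidase gene, was too low to be tested in any table. Its largest value was 13 reads, in Apc control F replicate 1 (0.238 CPM), and a library with 0 reads allows up to 3, or 0.0485 to 0.0670 CPM in the Apc table. Apc black rice libraries held 0 to 3 reads, controls 0 to 13 and WT libraries 0 to 3. Controls averaged 0.0923 ± 0.106 CPM and WT libraries 0.0191 ± 0.0239 CPM (SD, n = 6 each; two-sided exact permutation p = 0.16). The exact permutation p between diets was 0.76 in the AOM table and 0.20 in the third table. A difference in Epx was not detectable at this depth, in a table where Prg2, the other granule gene, had 13 to 86 reads.

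Among the surface receptors, Siglecf had the most reads and overlapped between diets throughout. Apc black rice libraries had 3.10, 2.40 and 1.16 CPM in F and 1.61, 2.49 and 4.29 CPM in M. Controls had 3.73, 3.94 and 3.06 CPM in F and 0.884, 2.26 and 5.96 CPM in M, and WT libraries ranged over 1.83 to 6.29 CPM with a median of 2.48. The lowest and highest control values both came from M libraries. The black rice minus control log2 difference was -0.39 (SE 0.43) and turned to 0.05 without control M replicate 3 and to 0.32 with a smooth muscle covariate.

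AOM libraries ranged in Siglecf over 0.857 to 5.08 CPM with black rice (median 2.03, n = 5) and 0.686 to 2.50 CPM with control diet (median 0.950, n = 6), a log2 fold change of 0.79 (SE 0.50, edgeR, adjusted p = 1.0). The third table had 3.6, 4.04, 3.46 and 3.77 CPM with black rice against 4.6, 4.4, 3.58 and 6.09 CPM with control diet, a log2 fold change of -0.38 (SE 0.18; adjusted p = 0.64 by edgeR). The arms overlapped through control replicate 3.

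Siglecf varied between libraries with tuft cell genes. Among the 5 genes most like it were Trpm5, a cation channel of tuft and taste cells (r = 0.89 over 37 libraries), the adaptor genes Sh2d7 (0.87) and Sh2d6 (0.85), and Adam7 (0.83). Within the Apc and AOM tables Trpm5 gave 0.89 and 0.91, and within the third table, 0.45. The tuft cell list had 10 genes, all tested and none called in any contrast; in the third table, 9 of 10 were lower with black rice (median -0.28, Trpm5 -0.40), beside the Siglecf value of -0.38. Of the same 10 genes, 8 were higher in the AOM table (median 0.47) beside 0.79. Of them, 9 were higher in the Apc table (median 0.36) where Siglecf was at -0.39. The summed tuft list was 59.1 to 122 CPM in Apc black rice libraries, 36.7 to 93.9 CPM in controls and 57.2 to 106 CPM in WT libraries. With the mean of the tuft list as a covariate, chosen after the data were seen, the black rice minus control value of Siglecf was -0.93 (SE 0.25) in the Apc table, 0.016 (SE 0.58) in the AOM table and -0.44 (SE 0.23) in the third table. With Prg2, Siglecf correlated at 0.04 over the same 37 libraries, rank 6254 of 15754 genes.

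**Figure D3:**
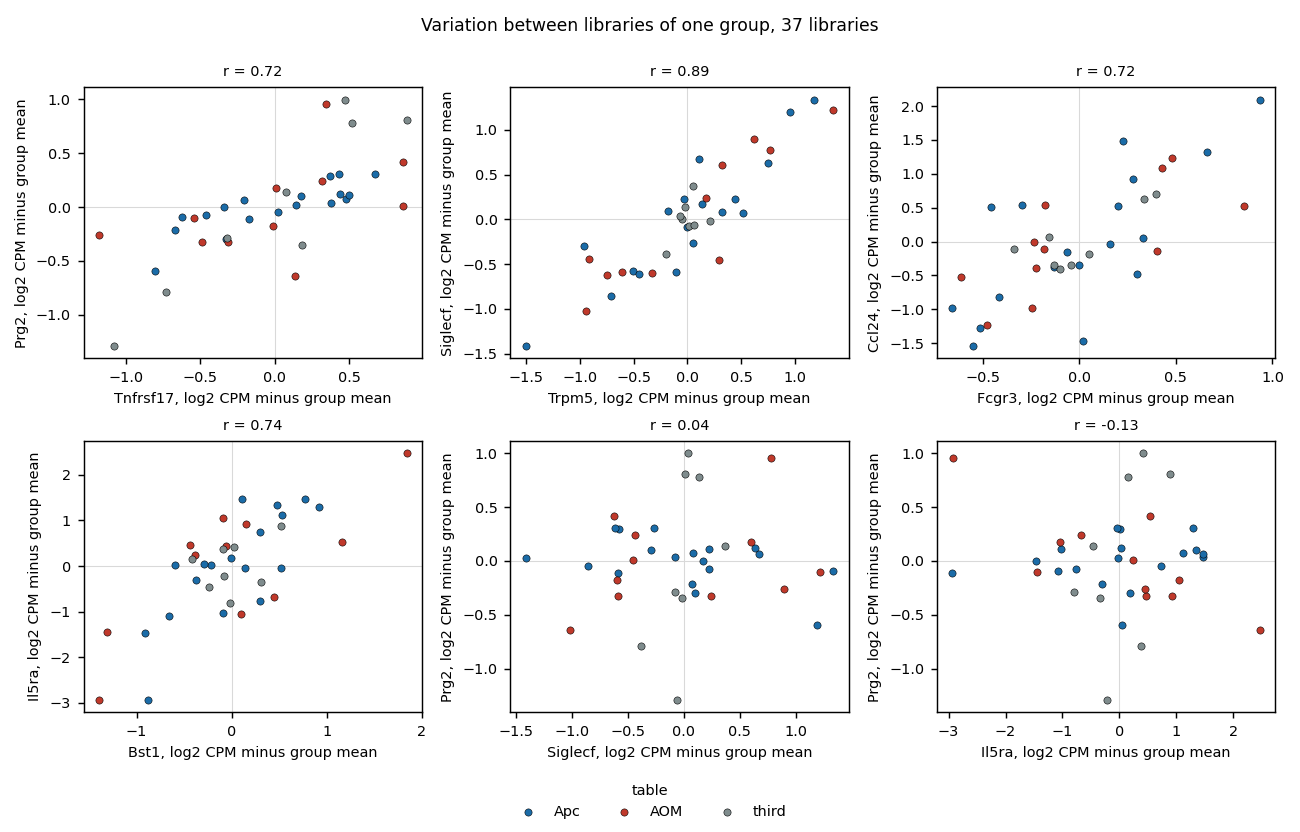
Log2 CPM minus the group mean for 6 pairs of genes (both axes, log2 units), 1 point per library, coloured by table, 37 libraries. Prg2 follows Tnfrsf17 and Siglecf follows Trpm5, at r = 0.72 and 0.89, while Prg2 against Siglecf and against Il5ra gives r = 0.04 and -0.13.

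Ccr3, the eotaxin receptor gene, was near its detection floor in all but a few libraries. Apc black rice libraries had 0.101, 0.542 and 0.061 CPM in F and 0.0365, 0.283 and 2.21 CPM in M. Controls ran over 0 to 0.424 CPM (median 0.0822) and WT libraries over 0 to 0.156 CPM (median 0.0709). One library, black rice M replicate 3, held 109 of the 161 black rice reads. The black rice minus control difference was 1.88 on the log2 scale (SE 0.96), and 0.71 without that library. Against WT it was 2.65 (SE 1.01, edgeR, adjusted p = 0.59). In the AOM table no library had more than 5 reads and in the third table none had more than 5, with exact permutation p-values of 0.99 and 0.97 between diets.

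Il5ra, the interleukin 5 receptor chain, varied widely between libraries of a group. Apc black rice libraries had 0.564, 0.329 and 0.996 CPM in F and 0.0912, 2.47 and 2.53 CPM in M; controls had 0.201, 0.748 and 1.65 CPM in F and 0.282, 0.582 and 0.123 CPM in M. WT libraries ranged over 0.114 to 0.771 CPM (median 0.572). The highest and second highest values of the table and the lowest one came from the 3 M black rice libraries. The black rice minus control difference was 0.93 (SE 0.65), and the F difference minus the M one was -2.75 (SE 1.31, edgeR, adjusted p = 0.57; 0% of genes called, 1923 of 21624 with an unadjusted p under 0.05).

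AOM libraries had Il5ra at 2.82 and 0.654 CPM in F and 0, 0.179 and 0.949 CPM in M black rice libraries, against 2.37, 0.585 and 3.28 CPM in F and 1.31, 1.26 and 0.773 CPM in M controls. The diet difference was -0.92 (SE 0.79, edgeR, adjusted p = 1.0) and the F minus M difference 1.46 (SE 0.77, edgeR, adjusted p = 0.63), in a contrast with 8 calls over all genes (0.0365%). In the third table it was below 0.23 CPM in all 8 libraries, with a difference of -0.40 (SE 0.42, edgeR, adjusted p = 0.84). The genes most like Il5ra were Tcerg1l (r = 0.78), the semaphorin receptor gene Plxnc1 (0.75), the ectoenzyme gene Bst1 (0.74), the galactosyltransferase gene Ggta1 (0.73) and Myo16 (0.73). Tcerg1l gave -0.01 within the third table. Il5ra and Prg2 correlated at -0.13 over all libraries, and at 0.25, -0.81 and 0.47 within the Apc table, the AOM table and the third table.

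Il5, the cytokine that matures eosinophils, was below the filter in all tables. The most reads in the Apc table were 11, in black rice F replicate 2 (0.213 CPM); black rice libraries held 0 to 11 reads, against 0 to 3 in control and 0 to 3 in WT libraries. Control and WT averaged 0.0244 ± 0.0233 and 0.0296 ± 0.0206 CPM (SD, n = 6 each; exact permutation p = 0.70). AOM libraries held 0 to 8 reads (exact permutation p = 0.35). In the third table black rice libraries averaged 0.0461 ± 0.0255 CPM and controls 0.107 ± 0.0402 CPM (SD, n = 4 each), with an exact permutation p of 0.057, where the smallest possible is 0.029. The 8 libraries there held 2 to 14 reads each.

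Ccl11, eotaxin-1, was the most abundant of the 8 genes and the one with the most reads. Apc black rice libraries had 34.5, 35 and 18 CPM in F and 12.2, 45.1 and 55.5 CPM in M. Controls had 17.9, 24.7 and 26.3 CPM in F and 13.5, 24.7 and 33.5 CPM in M, and WT libraries 16.3, 11.8 and 6.15 CPM in F and 22.1, 24.9 and 40.2 CPM in M. The black rice arm held both the highest values and, in M replicate 1, one below every control. Means were 33.4 ± 16.2, 23.4 ± 6.94 and 20.2 ± 11.9 CPM in black rice, control and WT libraries (SD, n = 6 each).

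The Ccl11 difference between black rice and control was 0.50 (SE 0.33), that between black rice and WT 0.83 (SE 0.33, edgeR, adjusted p = 0.59), and that between control and WT 0.32 (SE 0.33, edgeR, adjusted p = 1.0). F minus M over the Apc arms was -0.70 (SE 0.27, edgeR, adjusted p = 0.25).

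AOM libraries had Ccl11 at 7.31 and 9.20 CPM in F and 3.86, 3.45 and 5.61 CPM in M black rice libraries, against 11.7, 7.84 and 7.30 CPM in F and 8.26, 7.86 and 7.13 CPM in M controls. All 3 M black rice libraries lay below all 3 M controls, which 7.28% of tested genes also showed. The diet difference was -0.46 (SE 0.21, edgeR, adjusted p = 1.0), and F minus M was 0.46 (SE 0.20, edgeR, adjusted p = 0.58), opposite in sign to the Apc table. In the third table it was 12.9, 9.49, 13.5 and 13.2 CPM with black rice and 6.53, 12.4, 11.5 and 5.62 CPM with control diet, a difference of 0.38 (SE 0.27, edgeR, adjusted p = 0.74). The genes most like Ccl11 were Arhgap31 (r = 0.74), Slc9a3r2 (0.73), the RNA-binding protein gene Bicc1 (0.72), the semaphorin and VEGF co-receptor gene Nrp1 (0.69) and Rtn4rl2 (0.68). Within the AOM table the r values were uneven: Slc9a3r2 gave 0.04, Nrp1 0.00 and Rtn4rl2 0.20, while Arhgap31 gave 0.43 and Bicc1 0.44.

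Ccl24, eotaxin-2, varied separately from Ccl11 between the 37 libraries (r = 0.09). Apc black rice libraries had 0.604, 2.01 and 0.406 CPM in F and 0.201, 0.303 and 2.47 CPM in M. Controls ranged over 0.0822 to 0.469 CPM (median 0.354) and WT libraries over 0.134 to 1.18 CPM (median 0.335). The black rice minus control difference was 1.62 (SE 0.67), and 0.68 without black rice M replicate 3. Against WT it was 1.07 (SE 0.66, edgeR, adjusted p = 0.65), and 0.12 without that library.

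In the AOM table Ccl24 was at 1.08 and 0.180 CPM in F and 0.0854, 0.0512 and 0.155 CPM in M black rice libraries, against 0.182 to 1.07 CPM in the 6 controls (median 0.351). All 3 M black rice libraries lay below all 3 M controls, which 7.28% of tested genes also showed. The diet difference was -0.76 (SE 0.56, edgeR, adjusted p = 1.0), the F minus M difference 1.0 (SE 0.56, edgeR, adjusted p = 0.64), and the F diet difference minus the M one 3.06 (SE 1.12, edgeR, adjusted p = 0.32; 0% of genes called, 3063 of 21895 with an unadjusted p under 0.05). In the third table it was 0.226, 0.120, 0.126 and 0.109 CPM with black rice and 0.461, 0.226, 0.320 and 0.239 CPM with control diet. The arms overlapped, and these libraries held 8 to 42 reads each. The difference of -1.13 (SE 0.36) was the largest there among the 5 tested members and did not pass the threshold (edgeR, adjusted p = 0.55).

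The genes most like Ccl24 were Tarm1 (r = 0.76), the myeloid IgG receptor gene Fcgr3 (0.72), the adhesion gene Icam1 (0.71), Gna15 (0.70) and Tnfaip2 (0.69). Fcgr3 held at 0.72, 0.72 and 0.79 within the Apc table, the AOM table and the third table. Of the 12 genes of the macrophage list, none was called in any contrast; 10, 11 and 10 were lower with black rice in the Apc table, the AOM table and the third table, with medians of -0.52, -0.60 and -0.47. Their summed level in the third table was 192 to 294 CPM with black rice and 270 to 318 CPM with control diet. With the list as a covariate, chosen after the data were seen, the AOM diet difference of Ccl24 was 0.48 (SE 0.78), opposite in sign to the value without it.

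**Figure D4:**
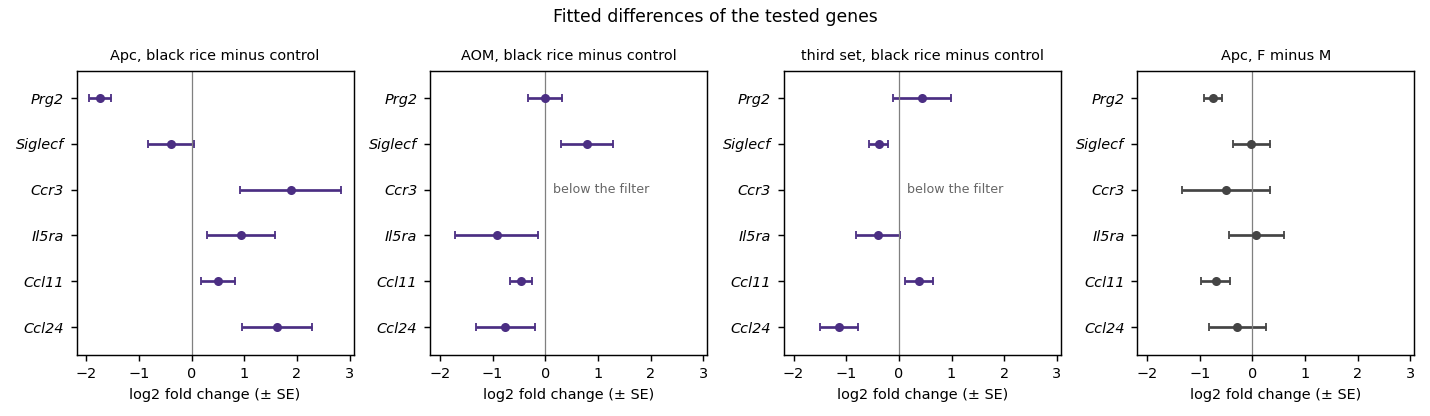
Log2 fold change with its SE (x axis) for the 6 tested genes in the 3 diet comparisons, black rice minus control, and for F minus M in the Apc table. Ccl24 and Il5ra stand at 1.62 and 0.93 in the Apc table and below 0 in both other tables, and Ccr3 passed the low-count filter in the Apc table alone.

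The members did not move as 1 group with diet. In the Apc comparison that chose Prg2, 4 of the 6 tested genes had a higher and 2 a lower fitted level with black rice; in the AOM table, 1 of 5 was higher, and in the third table, 2 of 5. Siglecf was higher with black rice in the AOM table alone, Ccl11 in the Apc table and the third table, and Ccl24 and Il5ra in the Apc table alone. No difference of a member was called in the AOM table or the third table. The median over tested members was 0.72, -0.46 and -0.38 in the Apc table, the AOM table and the third table, against -0.01, -0.02 and 0.01 over all tested genes.

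Among the Apc black rice libraries, F replicate 2 and M replicate 3 stood above the rest for several genes of this axis; this pair was singled out after their values were seen. They held the 2 highest values of the 18 libraries for 3 of the 8 genes, Ccr3, Ccl24 and Il5 (11 and 8 reads). Among the 10 further eosinophil genes this also held for 2, Ear2 at 7.75 and 7.57 CPM and Alox15 at 1.74 and 6.37 CPM. The share of all genes highest in these libraries was not counted, so the order is not read as particular to these genes. No other Apc library exceeded 2.26 CPM of Ear2, an eosinophil-associated ribonuclease, or 1.07 CPM of Alox15, a lipoxygenase. Prg2 in these libraries was at 0.252 and 0.526 CPM, the lowest and the highest of the black rice arm. The 3 tested genes of that list did not share a direction in the Apc table: the black rice minus control value was 2.11 (SE 0.59) for Ear2 and -1.70 (SE 0.52) for Clec4a4, and 2 of 3 were higher. In the AOM table and the third table, 0 of 3 were higher, with Alox15 at -3.24 (SE 1.32, edgeR, adjusted p = 1.0) in the AOM table, and none was called in any of the 3 tables.

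**Figure D5:**
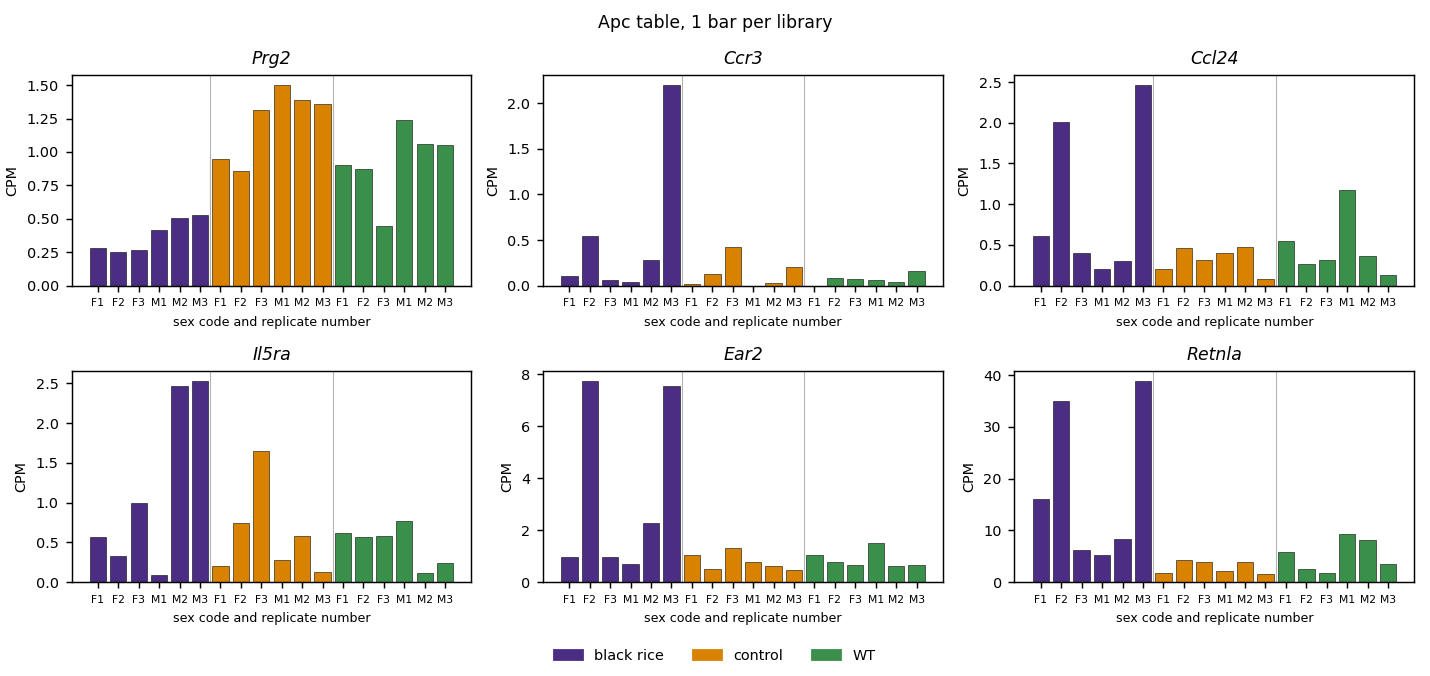
CPM (y axis, linear from 0) of Prg2, Ccr3, Ccl24, Il5ra, Ear2 and Retnla in each of the 18 Apc libraries, labelled by sex code and replicate number and coloured by arm. Ccr3, Ccl24, Ear2 and Retnla peak in black rice F2 and M3, where Prg2 is at 0.252 and 0.526 CPM.

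Genes that respond to interleukin 4 and interleukin 13 were measured as a list of 8. Retnla, encoding the resistin-like molecule RELM-alpha, was at 16.1, 35 and 6.20 CPM in F and 5.16, 8.29 and 38.9 CPM in M black rice libraries of the Apc table, against 1.56 to 4.20 CPM in controls and 1.73 to 9.20 CPM in WT libraries. Every black rice library was above every control, which 0.143% of tested genes showed. Retnla was named for its small p within the list, so this order is a description. Its difference from control was 2.67 (SE 0.55). Retnlb, the goblet cell product RELM-beta, was at 643, 45.7 and 0.610 CPM in F and 1464, 1395 and 3265 CPM in M, against 2.46 to 175 CPM in controls, with a difference of 3.77 (SE 1.28). The list had 5 of its 7 tested genes higher and a median of 0.32, and none was called. In the AOM table, 1 of 7 was higher (median -0.59) and in the third table, 3 of 6 (median -0.13), again with none called.

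Few cytokine genes upstream of this axis passed the filter. Of 9 type 2 cytokines and alarmins, 4 passed the filter in the Apc and AOM tables and 5 in the third, and none was called. Il33, the epithelial and stromal alarmin, was at 5.86, 4.10, 4.39 and 5.17 CPM with black rice and 2.08, 2.55, 1.98 and 2.03 CPM with control diet in the third table. The arms did not overlap (3.13% of tested genes had every black rice library above every control), with a difference of 1.12 (SE 0.18, edgeR, adjusted p = 0.40). Il33 too was named for its small p within its list, so its order is a description. In the AOM table Il33 stood at -0.64 (SE 0.59, edgeR, adjusted p = 1.0). All 16 genes for receptors and signalling of these cytokines were tested, and none was called; 6 were higher with black rice in the Apc, 4 in the AOM and 6 in the third table.

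Of 5 other chemokine genes, listed as possible ligands of CCR3, none was called. Ccl7, a monocyte and eosinophil attractant, had a log2 fold change of -1.21 in the AOM table (SE 0.47, edgeR, adjusted p = 1.0) and of -1.26 in the third table (SE 0.34, edgeR, adjusted p = 0.51). Ccl7 in the third table was at 1.29, 0.646, 0.467 and 0.694 CPM with black rice against 1.93, 2.08, 1.89 and 1.23 CPM with control diet. The arms overlapped there through black rice replicate 1 alone.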

How the data were processed

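The data are bulk RNA sequencing libraries of mouse intestinal tract: per the labels' protocols, Trizol extraction, oligo(dT) capture and DNBSEQ sequencing. The authors deposited raw counts per gene, not normalized. The AOM table and the third table, per the file headers, came from featureCounts 2.0.1 with the Ensembl 104 annotation of GRCm39, with no strand option; the Apc table names no command. The submitters' processing notes list FastQC, fastp, HISAT2, SAMtools, featureCounts and Subread, in versions not given in the sources used here. Reads of overlapping antisense genes therefore cannot be told apart.

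edgeR 4.0.16 (R 4.3.3) was run on each table alone: filterByExpr by group, TMM scaling, and two-sided quasi-likelihood F tests of group means with Benjamini-Hochberg adjustment over all tested genes at 0.05. Apc and AOM diet differences are means of the F and M differences. CPM divides by the library total without TMM, and RPKM uses exon lengths of the GENCODE mouse annotation of the earlier build. Members below the filter were compared by exact permutation of CPM (scipy 1.17.1). Counting intervals and floors of 3 reads cover counting error only. Alternatives were RLE factors, DESeq2 1.42.0, limma-voom 3.58.1, no filter, a replicate block, a smooth muscle covariate, the compared groups only, all 12 AOM libraries and leaving out each replicate; list covariates for Prg2, Siglecf and Ccl24 were added after seeing the data. Scripts were tested on simulated data.

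The members and gene lists were chosen with earlier results of these data known. Besides the 8 members, the named genes are the 2 of smallest p in a list, none of which passed the threshold, and the 5 genes most correlated with a member, of which 1 is not reported here. The eosinophil check genes with Gata1 and the library values of Ear2 and Alox15 are named outside that rule, after their values were seen. Of 42 pairs of libraries of the same group, 0 were identical. No column was left unmapped.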

Additional observations from a re-analysis of the deposited data

Results flagged for a closer look

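Within the 4 black rice libraries of the third table, 2 values stood far from the other 3. Ccl11 was lowest in replicate 2 at 9.49 CPM, and Ccl24 was highest in replicate 1 at 0.226 CPM. By Dixon's criterion chance gives such a value in about 1 in 20 groups, so flags of this number carry little weight. The AOM library left out of the comparisons, black rice F replicate 3, held Ccl24 at 3.54 CPM, which is 19 reads with an exact Poisson interval of 2.13 to 5.52 CPM, while the highest AOM control stood at 1.07 CPM. The same library had 25.2% of its reads on 10 hepatocyte genes, and the part of those reads in the Ccl24 value was not tested.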

How the results depend on the processing

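Over 32 log2 differences of single members and 309 alternative values, 288 kept their direction and their side of the threshold, 9 were lost, 1 was gained and 11 turned in direction. In the Apc black rice against control contrast the count of members past the threshold, 1, went to 0 with the smooth muscle covariate; that contrast chose Prg2, so its counts are no support. Against WT, the call of Prg2 went to 0 members with RLE factors, limma-voom, no filter, the smooth muscle covariate and the compared groups alone, and ranged over 0 to 1 when leaving out each replicate (kept without WT F replicate 3 alone). Between libraries of the same replicate number, 13 of 45 Apc, 7 of 15 AOM and 1 of 4 correlations in the third table were over 0.1. Their medians were -0.05, 0.09 and -0.34. Apc control M and WT M libraries of the same number gave 0.37, 0.37 and 0.42. Whether replicate numbers pair the libraries cannot be settled by such counts. With the replicate block the call against WT was 0, the Prg2 value -1.36, and no other call of a member changed. DESeq2 called 1 member, Prg2, in the Apc F against M contrast, where edgeR called 0. The share of all genes that DESeq2 called in that contrast is not given here, so its call is not read as a result. Siglecf in the Apc diet contrast turned to 0.32 with the smooth muscle covariate and ran over -0.60 to 0.049 when leaving out each replicate (highest without control M replicate 3). Prg2 in the AOM diet contrast, at -0.00, was 0.012 with RLE factors, 0.013 with DESeq2, 0.011 with no filter, 0.20 with the B and plasma cell covariate and -0.33 to 0.16 when leaving out each replicate. That covariate took Prg2 in the third table to -0.081. Ccl24 in the AOM diet contrast was 0.23 with all 12 libraries and 0.48 with the macrophage covariate, and its AOM F minus M value was -0.69 with that covariate. The cause of these changes was not tested. Leaving out an AOM black rice F library leaves 1, assumed to vary like the other groups. Counts of 0 to 30 reads limit Epx, Il5, Ccr3 and Prg2 in the third table. Il5ra, at 5 to 20 reads, and Ccl24, at 8 to 42 reads, were also low there.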
